A study of Mus musculus with 12 samples.

Results

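Scx, Mkx, Tnmd, Thbs4, Fmod and Kera are genes of the tendon lineage, and they were followed here through 12 cultures of mouse embryonic fibroblasts with and without telomerase. Each gene was represented by the probe set annotated with its symbol alone, and each had 1 such probe set, so the group consists of 6 of the 19938 genes with such a probe set, on an array of 28853 probe sets. The genes were chosen by the log2 signals of Scx, because the effect of the knockout on Scx differed between the mTERT and the mTR line. The values of Scx in each knockout comparison and the difference between both comparisons for every member are therefore given as descriptions, without a test.

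The cultures came from male C57BL/6J embryos of embryonic day 12.5 to 14.5, and RNA was taken at passage 5. There were 4 groups of 3 cultures. The mTERT KO cultures lacked telomerase reverse transcriptase and were set against mTERT WT, and the mTR KO cultures lacked the RNA component and were set against mTR WT. All knockout embryos belonged to generation G1, the first to lack the enzyme. Wild-type and knockout embryos of a set were littermates according to the design text, and no treatment was given. Fibroblasts grown from whole embryos at this stage are mixed cultures, and in such bulk RNA fewer cells of a type and less RNA per cell cannot be told apart. The labels name no batch, so the mTERT and mTR lines cannot be told apart from any batch that moved with them.

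Tendons join muscle to bone and are built by tenocytes from parallel collagen fibrils. Scx (scleraxis), a basic helix-loop-helix factor, marks tendon progenitors from their first appearance in the embryo, and TGF-beta and FGF signals induce it. Mkx (Mohawk), a homeobox factor of the TALE class, acts in the growth of the collagen fibrils. Tnmd (tenomodulin) is a membrane protein of mature tendon cells whose expression depends on Scx. Thbs4 (thrombospondin 4) and the small leucine-rich proteoglycans Fmod (fibromodulin) and Kera (keratocan) are matrix proteins that act on fibril assembly, and Kera is best known from the cornea.

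In the RefSeq promoter table of build GRCm38.p6, 4 of the 6 genes had an entry, Fmod, Kera, Thbs4 and Tnmd. The 250 bases before the start site were searched for CANNTG, the E-box letters that basic helix-loop-helix factors such as Scx can bind. The pattern reads the same on both strands. Fmod and Thbs4 are shown since they had the highest Pearson r between members (0.68 over the 12 cultures), although not the highest Spearman's rho (0.44, against 0.77 for Tnmd and Thbs4). They are written 5′ to 3′ on the strand of the gene, with the pattern in capitals. Fmod lies at chr1:134037004-134037253 on the plus strand and Thbs4 at chr13:92794819-92795068 on the minus strand.
Fmod: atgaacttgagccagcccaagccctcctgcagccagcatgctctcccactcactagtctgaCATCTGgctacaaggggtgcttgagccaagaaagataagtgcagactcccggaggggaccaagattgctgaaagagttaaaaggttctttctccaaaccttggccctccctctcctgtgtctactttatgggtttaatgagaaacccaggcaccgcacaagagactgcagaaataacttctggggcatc
Thbs4: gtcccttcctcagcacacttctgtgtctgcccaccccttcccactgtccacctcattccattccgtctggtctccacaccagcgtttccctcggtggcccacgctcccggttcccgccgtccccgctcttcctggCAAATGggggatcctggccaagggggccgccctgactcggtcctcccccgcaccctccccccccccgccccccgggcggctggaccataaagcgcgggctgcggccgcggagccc
Each held 1 match, beginning 189 bases before the start in Fmod and 115 bases before it in Thbs4. The windows of Kera and Tnmd held 0. The pattern was present in 66.2% of the 32851 windows of this length, so a match is common, and it is a description of letters and not of a binding site.

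All 12 fibroblast markers of a list (such as Col1a1, Pdgfra and Thy1) read above background in every culture. Background was set, per array, as the 95th percentile of 1035 probe sets of olfactory receptor genes and lay between 4.93 and 5.09. In every culture 13 or 14 of 14 macrophage markers were above background, against 0 to 2 of 8 endothelial markers. Scx, Mkx, Tnmd and Fmod were above background in 12 of 12 cultures and Thbs4 in 9, whereas Kera was above it in 0 of 12. The labelled cell type was embryonic fibroblast, and 5 of the 6 tendon markers were detected in at least some cultures. Over all 28853 probe sets, 1 was called at a 5% false discovery rate between mTERT KO and mTERT WT (0.00347%; Tert, lower), and 0 between mTR KO and mTR WT (0%; limma, with 1679 at an unadjusted p below 0.05). For the mean of both knockout effects 0 were called (0%; limma, with 1180 at an unadjusted p below 0.05), and between the lines 5 (0.0173%). None of these calls was a tendon gene.

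**Figure D1:**
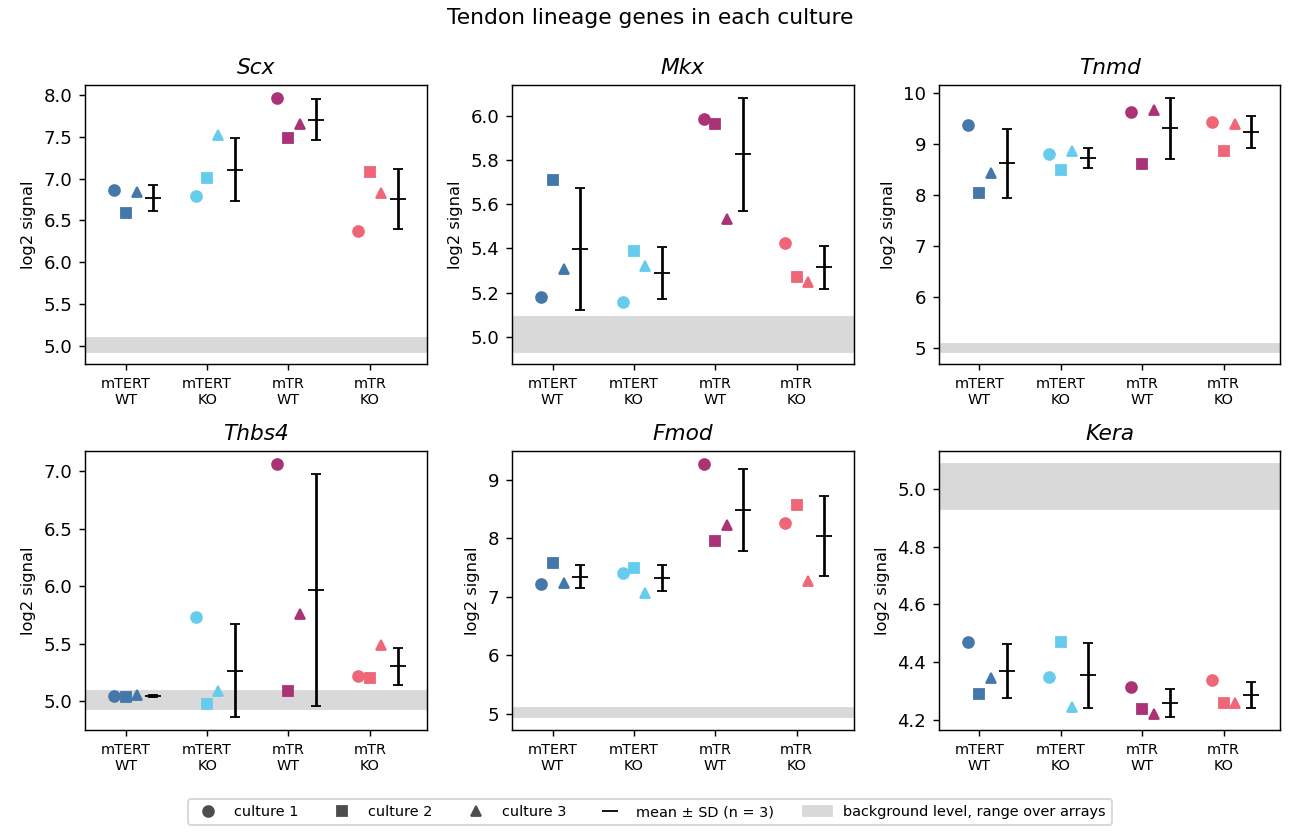
Log2 signal (vertical axis) of the 6 tendon lineage genes in each culture of the 4 groups (horizontal axis), with group mean ± SD (n = 3) and a grey band for the range of the background level over the 12 arrays. Scx is highest in the 3 mTR WT cultures and mTERT KO 3, Thbs4 stands far above background in mTR WT 1 alone, and Kera lies below background throughout.

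Scx had its highest mean in wild-type cultures of the mTR line. The mTR WT cultures 1 to 3 had log2 signals of 7.97, 7.48 and 7.66, against 6.37, 7.08 and 6.83 for mTR KO. The mTERT WT cultures had 6.87, 6.59 and 6.84, against 6.79, 7.01 and 7.52 for mTERT KO. The mTR groups did not overlap, while in the mTERT line the lowest knockout culture lay below the highest wild type.

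In order of their means, mTR KO and mTERT WT stood lowest with 6.76 ± 0.36 and 6.76 ± 0.15 (SD, n = 3), mTERT KO followed with 7.11 ± 0.38, and mTR WT stood highest with 7.70 ± 0.25. Neighbouring groups in this order overlapped, and mTR WT and mTERT KO met only through mTERT KO 3, which at 7.52 exceeded mTR WT 2. Every mTR WT culture exceeded every mTERT WT culture, with a difference of −0.94 between the wild types (mTERT minus mTR) against 0.35 between the knockouts. Scx was the one member whose mTR WT cultures lay above all mTR KO and all mTERT WT cultures, a pattern met by 2.18% of all probe sets, and nothing is read from it since the selection used these groups.

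The knockout minus wild-type difference of Scx was −0.94 ± 0.21 (standard error) in the mTR line, a 1.92-fold lower signal. It was 0.34 ± 0.21 in the mTERT line, and the difference between both effects, on which the gene was picked, was 1.29 ± 0.30. In the mTERT line, where cultures of the same number were paired by their profiles, the differences within pairs 1 to 3 were −0.08, 0.43 and 0.68. The first pair had the lower signal in the knockout, unlike the others. Without mTERT KO 3 the mTERT difference was 0.14, against 0.50 without mTERT KO 1. In the mTR line it ranged from −1.10 without mTR KO 2 to −0.75 without mTR KO 1. In the mTR comparison 6.07% of all probe sets had every knockout culture below every wild type and 5.33% every one above. In the mTERT comparison these shares were 3.09% and 2.88%, and 0 of the 6 members were among them.

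Tests of Scx that its selection did not use gave no call. The mean of both knockout effects was −0.30 ± 0.15 (limma, adjusted p = 0.985) and the difference between the lines, mTERT minus mTR averaged over genotypes, was −0.30 ± 0.15 (adjusted p = 0.832). Their intervals ran from −0.63 to 0.03 and from −0.62 to 0.03.

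Bop1, a ribosome biogenesis factor, followed Scx over the cultures, though not in each of them. The RefSeq table places Scx inside the interval of Bop1. For Bop1 the mTR WT cultures had 8.18, 8.21 and 8.16, against 7.80, 8.10 and 8.08 for mTR KO. The mTERT WT cultures had 8.03, 7.95 and 8.06, against 8.02, 7.93 and 8.26 for mTERT KO. The culture lowest in Scx, mTR KO 1, was also lowest in Bop1, and mTERT KO 3 was the highest of both among mTERT cultures. Others went apart: mTR WT 2 was the lowest of its group in Scx and the highest in Bop1. Likewise mTERT KO 2 was the lowest mTERT culture in Bop1 but exceeded every mTERT WT culture in Scx.

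Over the 12 cultures Pearson's r between Scx and Bop1 was 0.84 (Spearman's rho 0.81), a description over cultures that share groups and litters. It was 0.89 over 10 cultures without mTR WT 1 and mTR WT 3, 0.81 in the mTERT line and 0.87 in the mTR line (n = 6 each), and 0.79 for the deviations from the group means. Of all probe sets 99.9% had a lower r with Scx. The range of Bop1 was narrow, 0.46 against 1.60 for Scx. Its mTR difference was −0.19 ± 0.10 (limma, adjusted p = 0.84) and its mTERT difference 0.06 ± 0.10 (adjusted p = 1). Whether part of the signal of one gene came from transcripts of the other was not tested.

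The other neighbours followed Scx less closely. Mroh1 had an r of 0.47 and Hgh1 of 0.52 with Scx over the 12 cultures, Dgat1 of 0.07 and Scrt1, below background in every culture, of 0.04. Without mTR WT 1 and mTR WT 3 (n = 10) the r was 0.72 for Mroh1, 0.72 for Hgh1, 0.31 for Dgat1 and 0.04 for Scrt1. In the mTERT line Mroh1 had 0.66 and Hgh1 0.65, and in the mTR line 0.47 and 0.62 (n = 6 each). Mroh1 differed by −0.27 ± 0.20 in the mTR comparison (limma, adjusted p = 0.851), and Hgh1 by 0.18 ± 0.09 in the mTERT comparison (adjusted p = 1). Of 5 measured neighbours, Bop1 included, 5 were lower in mTR KO and 3 higher in mTERT KO cultures, with 0 called in either. Of all probe sets 49.7% were lower in mTR KO. For Dgat1 and Scrt1 the mTR groups were nearly equal, with means of 7.623 and 4.529 in mTR WT against 7.621 and 4.526 in mTR KO.

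Mkx, the second transcription factor, also had its highest mean in mTR WT. The mTR WT cultures had 5.99, 5.96 and 5.53, against 5.43, 5.27 and 5.25 for mTR KO, without overlap. The mTERT WT cultures had 5.18, 5.71 and 5.31, against 5.16, 5.39 and 5.32 for mTERT KO. These overlapped, and mTERT WT 2 reached the range of mTR WT.

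The mTR difference of Mkx was −0.51 ± 0.15 (limma, adjusted p = 0.839; unadjusted p = 0.00539). Of the 5 members tested there, 1 (Mkx, lower) had an unadjusted p below 0.05, against 5.82% of all probe sets, and 3.59% with the knockout lower. The mTERT difference was −0.11 ± 0.15 (adjusted p = 1), and 0 of the 5 had an unadjusted p below 0.05 there, against 1.92% of all probe sets (0.957% with the knockout lower). Without mTERT WT 2 it was 0.04, and without mTERT WT 1 it was −0.22. Beside Scx, which was picked on these values, Mkx was the 1 of the other 5 members whose mTR groups did not overlap, as 6.07% of all probe sets did not with the knockout lower. The mean knockout effect of Mkx was −0.31 ± 0.11 (adjusted p = 0.985; unadjusted p = 0.0127), and the line difference −0.23 ± 0.11 (adjusted p = 0.792). Mkx was the 1 of 6 members with an unadjusted p below 0.05 in the mean effect, where 4.09% of all probe sets had one, and 2.46% had one with the knockouts lower. Scx and Mkx correlated at 0.53 over the 12 cultures but at −0.16 for the deviations from the group means, so their likeness lay between groups and not within them.

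Tnmd, which depends on Scx in tendon, had higher means in the mTR than in the mTERT line in both genotypes. The mTR WT cultures had 9.63, 8.61 and 9.67, against 9.43, 8.87 and 9.39 for mTR KO. The mTERT WT cultures had 9.37, 8.04 and 8.44, against 8.80, 8.49 and 8.85 for mTERT KO. Groups overlapped in both comparisons, and culture 2 was the lowest of each group.

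The mTR difference of Tnmd was −0.07 ± 0.34 (limma, adjusted p = 0.980; interval −0.83 to 0.68) and the mTERT difference 0.10 ± 0.34 (adjusted p = 1; interval −0.65 to 0.85). These intervals are wide enough to hold a change of the size seen in Scx in the mTERT line. In the mTR line the lower bound falls short of the −0.94 of Scx, but the interval of Scx, −1.41 to −0.48, overlaps that of Tnmd. Nothing is read from this, since Scx was picked on these groups. Without mTR WT 2 the mTR difference of Tnmd was −0.42. The line difference was −0.60 ± 0.24 (adjusted p = 0.723; unadjusted p = 0.0304), with means of 8.66 ± 0.45 in the mTERT and 9.27 ± 0.43 in the mTR line (SD, n = 6). Scx and Tnmd correlated at 0.34, and 79.4% of all probe sets had a lower r with Scx.

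Fmod, a proteoglycan that binds collagen fibrils, had higher means in the mTR line than in the mTERT line. The mTERT WT cultures had 7.22, 7.58 and 7.23, against 7.40, 7.50 and 7.07 for mTERT KO. The mTR WT cultures had 9.28, 7.96 and 8.23, against 8.27, 8.58 and 7.27 for mTR KO. All mTR cultures but mTR KO 3 lay above all mTERT cultures.

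The line difference of Fmod was −0.93 ± 0.25, a 1.91-fold lower signal in the mTERT line, with means of 7.33 ± 0.19 and 8.27 ± 0.67 (SD, n = 6). It had the smallest p of any member between the lines and did not pass (limma, adjusted p = 0.454; unadjusted p = 0.00352). Fmod and Tnmd, 2 of the 6 members, had an unadjusted p below 0.05 between the lines, both lower in mTERT, against 6.3% of all probe sets and 3.54% lower in mTERT. These p-values treat the cultures of a line as independent, although they include littermates. The mTR difference was −0.45 ± 0.36 (adjusted p = 0.858), and −0.05 without mTR WT 1 or −0.07 without mTR KO 3. The mTERT difference was −0.02 ± 0.36 (adjusted p = 1, interval −0.81 to 0.76). That standard error comes from the spread of all 4 groups and does not use the mTERT pairs. The SD was 0.20 in mTERT WT and 0.23 in mTERT KO, against 0.70 in mTR WT and 0.68 in mTR KO cultures. Within mTERT pairs 1 to 3 the differences were 0.18, −0.07 and −0.17.

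Thbs4, an oligomeric matrix protein of tendon and muscle, was near background in most cultures. The mTERT WT cultures had 5.05, 5.04 and 5.05, against 5.73, 4.97 and 5.09 for mTERT KO. The mTR WT cultures had 7.07, 5.08 and 5.75, against 5.22, 5.20 and 5.49 for mTR KO. The culture mTR WT 1 stood alone, and mTR WT 3 and mTERT KO 1 followed.

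The mTR difference of Thbs4 was −0.67 ± 0.38 (limma, adjusted p = 0.840), and −0.12 without mTR WT 1. The mTERT difference was 0.22 ± 0.38 (adjusted p = 1), and −0.01 without mTERT KO 1. The line difference was −0.48 ± 0.27 (adjusted p = 0.867), and −0.21 without mTR WT 1. The culture mTR WT 1 was also the highest in Scx and in Fmod, and Thbs4 and Fmod correlated at 0.68 over the 12 cultures, the highest Pearson r of the 15 pairs of members.

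Kera gave no signal above background. It ranged from 4.22 to 4.47 over the 12 cultures, and its SD of 0.08 exceeded that of only 17.8% of all probe sets, against 97.1% for Scx and 98.9% for Fmod. Its differences were −0.01 ± 0.07 in the mTERT line (limma, adjusted p = 1) and 0.03 ± 0.07 in the mTR line (adjusted p = 0.958). A gene at this level has no readable change on the array.

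**Figure D2:**
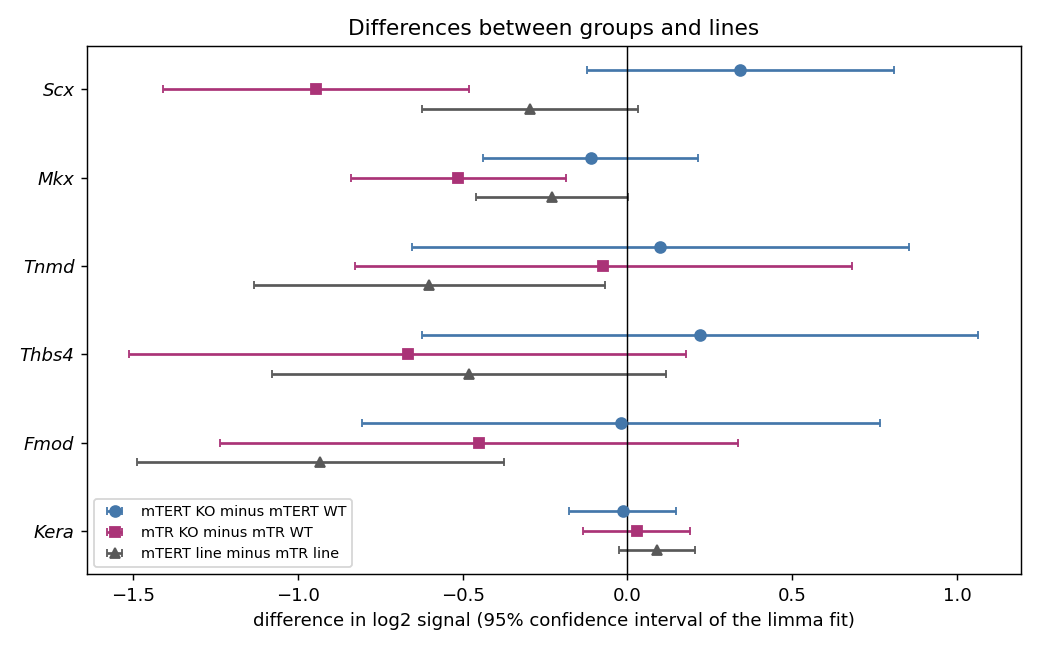
Differences in log2 signal (horizontal axis) with 95% confidence intervals of the limma fit for the 6 genes (vertical axis), as knockout minus wild type in each line and as mTERT line minus mTR line. The intervals of Mkx in the mTR comparison and of Tnmd and Fmod between the lines do not include 0. That of Scx in the mTR comparison does not either, but Scx was picked on these groups. No difference passed the 5% false discovery rate where tested.

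Side by side, the differences between the knockout effects (mTERT minus mTR) were 1.29 for Scx, 0.89 for Thbs4, 0.43 for Fmod, 0.40 for Mkx, 0.17 for Tnmd and −0.04 for Kera. The standard errors were 0.30, 0.54, 0.51, 0.21, 0.49 and 0.11 in this order. The mean knockout effect was below 0 for 4 of the 6 members, against 49.6% of all probe sets, and the mTERT difference was below 0 for 3, against 49.4%. Without mTR WT 1 the value of Thbs4 was 0.34 and that of Fmod 0.03, while without mTERT WT 2 that of Tnmd was −0.11.

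None of the other regulators of tendon cells was called. Of 9 listed factors 8 were measured, 2 of them higher and 6 lower in mTR KO, and 5 higher and 3 lower in mTERT KO cultures, with 0 called in any comparison and medians of −0.08 and 0.12, against 0.00 for all probe sets. Six2, a homeobox factor, differed by −0.50 ± 0.27 in the mTR comparison (limma, adjusted p = 0.840). Sox9, which marks the common progenitors of tendon and cartilage, differed by 0.36 ± 0.20 in the mTERT comparison (adjusted p = 1) and correlated with Scx at 0.04 over the 12 cultures. Eya1, a transcriptional coactivator, had a line difference of −0.44 ± 0.31 (adjusted p = 0.916).

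The list of genes around the signals that induce Scx also holds inhibitors and feedback genes, such as Smad7 and Spry2. Most of its members were lower in each knockout, without a call. Of 28 listed genes 27 were measured, and 18 of them were lower in mTR KO and 19 in mTERT KO cultures, with medians of −0.04 and −0.07. The shares of all probe sets lower there were 49.7% and 49.4%. Fgfr2, an FGF receptor, had 7.63, 7.32 and 7.32 for mTR WT, against 6.76, 6.59 and 6.87 for mTR KO, a difference of −0.69 ± 0.18 without overlap (limma, adjusted p = 0.839). Smad7, the feedback inhibitor of TGF-beta signalling, differed by −0.28 ± 0.13 there, also without overlap (adjusted p = 0.839). Tgfbr2, a TGF-beta receptor, differed by 0.17 ± 0.14 in the mTERT comparison (adjusted p = 1). Between the lines Tgfb3, a ligand, differed by −0.26 ± 0.12 and Spry2, an FGF feedback gene, by 0.49 ± 0.18 (adjusted p = 0.782 and 0.695). Gdf5, a joint and tendon ligand, and Mstn, the myostatin gene, were above background in 0 of 12 cultures.

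The matrix genes of tendon gave no call either. Of 29 listed genes 28 were measured. They comprised 17 lower in mTR KO, 9 lower in mTERT KO and 19 lower in the mTERT than in the mTR line, with medians of −0.03, 0.05 and −0.08 and 0 called each time. The share of all probe sets lower in the mTERT line was 46.8%. Prelp, a proteoglycan of basement membranes and tendon, had a line difference of −1.17 ± 0.39, Chodl, a membrane lectin, of −1.40 ± 0.50, and Col5a2, a chain of the fibril-nucleating collagen V, of −0.17 ± 0.05 (limma, adjusted p = 0.638, 0.668 and 0.540). Chodl ranged from 4.62 to 8.63 over the cultures and was above background in 10 of 12.

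In the mTR comparison Col5a2 differed by −0.24 ± 0.07 without overlap, Plod2, a lysyl hydroxylase of collagen crosslinks, by −0.58 ± 0.24, and Eln, the elastin gene, by −1.004 ± 0.48 (limma, adjusted p = 0.839 each). Over both lines Plod2 differed by −0.42 ± 0.17, Col5a2 by −0.12 ± 0.05 and Igfbp6, an IGF-binding protein of tendon, by 0.32 ± 0.18 (adjusted p = 0.985 each). In the mTERT comparison Lum (lumican) differed by 1.21 ± 1.01 and Col14a1 by −0.37 ± 0.31 (adjusted p = 1 each). Lum ranged from 5.62 to 10.1 over the cultures. The mean signal of the 28 genes correlated with Scx at 0.02 over the 12 cultures, at −0.44 without mTR WT 1 and mTR WT 3 (n = 10), and at −0.56 for the deviations from the group means.

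The protein families of the members gave no call. Of 14 other small leucine-rich proteoglycans 9 were lower in mTR KO and 7 lower in the mTERT line, with 0 called (6 of them, Dcn, Bgn, Lum, Prelp, Ogn and Aspn, are also in the matrix list). Ecm2 had a line difference of −0.38 ± 0.10 (limma, adjusted p = 0.395), and the mean knockout effect was 0.70 ± 0.38 for Podn and 0.14 ± 0.05 for Nyx (adjusted p = 0.985 each). Of 4 other thrombospondin genes 3 were lower in mTR KO cultures. Thbs2, an inhibitor of angiogenesis, had a line difference of −0.26 ± 0.12 (adjusted p = 0.782), and Comp, of the same family as Thbs4 and also in the matrix list, differed by −0.35 ± 0.18 in the mTR comparison (adjusted p = 0.840) at a level above background in 1 of 12 cultures.

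Among 7 basic helix-loop-helix relatives of Scx, 5 were higher in mTR KO and 6 higher in mTERT KO cultures, with 0 called. Twist2 had a line difference of 0.65 ± 0.26 (limma, adjusted p = 0.720), opposite in sign to that of Scx, and Twist1 a mean knockout effect of 0.22 ± 0.16 (adjusted p = 0.985). Of 16 measured TALE homeobox genes, the class of Mkx, 14 had a mean knockout effect above 0, with a median of 0.06 and 0 called. Of all probe sets 49.6% had a mean effect below 0. By line, 13 of the 16 were higher in mTERT KO and 10 in mTR KO cultures. Irx4 and Irx6 were above background in 0 of 12 cultures. Irx1 had a mean effect of 0.54 ± 0.22 and Irx2 of 0.43 ± 0.15 (adjusted p = 0.985 each). In the mTR comparison Irx1 differed by 0.78 ± 0.31 and Irx2 by 0.53 ± 0.21, both without overlap and against the direction of Mkx (adjusted p = 0.839 each). Meis1 differed by 0.38 ± 0.13 between the lines (adjusted p = 0.645). Cnmd, the nearest relative of Tnmd, was above background in 0 of 12 cultures.

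The 6 genes whose signal followed Scx most closely were taken from 1684 other single-gene probe sets with a mean above background and an SD of at least 0.3 over the 12 cultures. They were Krt7, a keratin (Pearson's r = 0.87), Ano1, a chloride channel (0.85), Smoc2, a matricellular protein (0.84), Rgs4, a regulator of G protein signalling (0.83), Dner, a Notch ligand (0.83), and Unc5c, a netrin receptor (0.83). No tendon gene was among them. Each had its highest mean in mTR WT, which the choice by r with Scx favours and which is no result of its own. Rgs4 had group means of 7.89 in mTERT WT, 7.73 in mTERT KO, 9.27 in mTR WT and 8.20 in mTR KO. Ano1 passed the filter on the mean only through mTR WT (5.91), with means of 4.92 in mTERT KO and 4.86 in mTR KO, below the lowest background level. Krt7, Ano1, Smoc2 and Unc5c reached an SD of 0.3 only with the mTR WT cultures included, the group in which Scx was highest. The deviations from the group means correlated at 0.88 for Rgs4, 0.80 for Ano1, 0.79 for Dner and 0.35 for Smoc2. The lowest r belonged to Gsdmd (−0.79), H2-T10 (−0.79) and Lgals9 (−0.77), genes of innate and adaptive immunity.

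**Figure D3:**
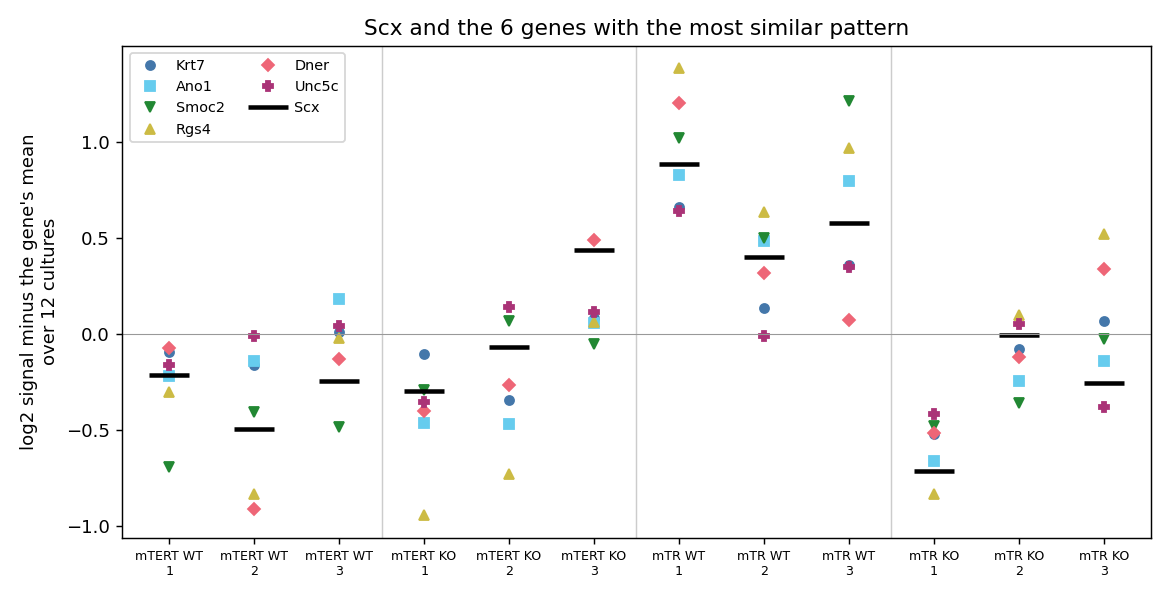
Log2 signal of Scx (black bars) and of the 6 genes with the highest Pearson r to it (coloured symbols) in each of the 12 cultures (horizontal axis), as the deviation from the mean of the gene over the 12 cultures (vertical axis). All 7 genes reach their highest group mean in mTR WT.

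Markers of other cells were also compared between the groups, without a call. All 14 macrophage markers were higher in mTR KO than in mTR WT cultures, with a median of 0.75 and 0 called. In the mTERT comparison 13 of the 14 were lower in the knockout, with a median of −0.14 and 0 called. The mTR WT cultures 1 to 3 had list means of 6.73, 8.31 and 8.75, against 9.57, 8.87 and 7.56 for mTR KO. The culture mTR WT 1 was thus lowest in macrophage markers and highest in Scx, and mTR KO 1 was highest in macrophage markers and lowest in Scx. The r between both was −0.62 in the mTR line and 0.23 in the mTERT line (n = 6 each). It was −0.40 over the 12 cultures, −0.11 without mTR WT 1 and mTR WT 3 (n = 10), and −0.19 for the deviations from the group means. The Scx difference without mTR KO 1 was −0.75 and without mTR WT 1 it was −0.81. The part of these cells in the Scx values was not tested.

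All 9 smooth muscle markers were lower in mTR KO and all 9 lower in mTERT KO cultures, with medians of −0.39 and −0.18 and 0 called. Their list mean was 10.1, 10.0 and 10.0 in mTR WT, against 8.92, 9.66 and 10.1 for mTR KO, so that mTR KO 1 was lowest as in Scx and mTR KO 3 overlapped the wild types. Myh11, the smooth muscle myosin, differed by −0.997 ± 0.49 in the mTR comparison (limma, adjusted p = 0.839). The list mean correlated with Scx at 0.58 over the 12 cultures, at 0.73 in the mTR and 0.21 in the mTERT line (n = 6 each), and at 0.64 for the deviations from the group means. The mean of the 12 fibroblast markers ranged from 10.8 to 10.9 in mTR WT and from 10.7 to 11.3 in mTR KO cultures, with mTR KO 1 the highest of all 12. It correlated with Scx at −0.42, and at −0.65 for the deviations. Of these markers Col1a1, Col1a2, Col3a1, Dcn and Lum are also in the tendon matrix list. The part of either cell type in the Scx values was not tested.

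Of 14 genes that mark limb and body position 11 were lower in mTR KO, 13 higher in mTERT KO and 10 lower in the mTERT line. Their medians were −0.41, 0.32 and −0.28, with 0 called. The shares of all probe sets lower there were 49.7%, 49.4% and 46.8%. An unadjusted p below 0.05 (limma) was met by 7, 5 and 5 of the 14 in the mTR, mTERT and line comparisons. Over all probe sets these shares were 5.82%, 1.92% and 6.3%. The list was chosen with earlier results of these data known. Hoxa13 and Hoxa11, genes of the distal limb, had line differences of −0.67 ± 0.10 and −0.84 ± 0.19 (limma, adjusted p = 0.0953 and 0.306). Without mTR WT 2 both were called (limma, adjusted p = 0.0371 each), and Hoxa13 also with array weights (adjusted p = 0.0482). In both settings more probe sets were called between the lines than in the main fit. Leaving out mTR WT 2 gave the most calls of any single array left out. In the mTR comparison the 3 smallest p belonged to Hoxa13 (−0.62 ± 0.15), Shox2, a homeobox gene of the proximal limb (0.68 ± 0.23), and Hoxd11 (−0.74 ± 0.26), each without overlap (adjusted p = 0.839 each). In the mTR line Shox2 thus ran opposite to Scx. In the mTERT line it had 7.15, 7.02 and 6.88 for WT, against 7.71, 7.09 and 6.75 for KO, with overlap. Its mean knockout effect was 0.42 ± 0.16 (limma, adjusted p = 0.985), and its r with Scx over the 12 cultures was −0.60. The list mean ran from 6.32 to 6.67 in mTR WT, 5.94 to 6.32 in mTR KO, 5.64 to 5.89 in mTERT WT and 6.07 to 6.29 in mTERT KO cultures. It correlated with Scx at 0.59 over the 12 cultures, at 0.14 without mTR WT 1 and mTR WT 3, and at −0.30 for the deviations from the group means. The part of the region of origin in the Scx values was not tested.

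**Figure D4:**
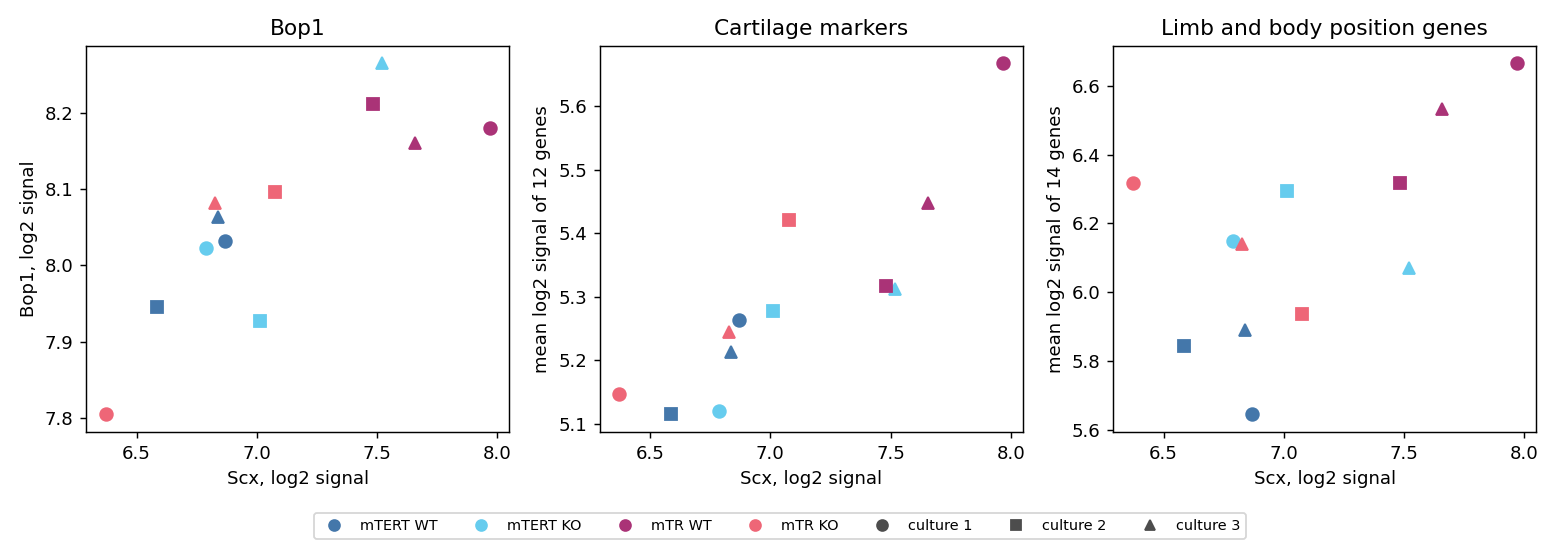
Log2 signal of Scx in the 12 cultures (horizontal axis) against that of Bop1, the mean of 12 cartilage markers and the mean of 14 limb and body position genes (vertical axes); colours mark the groups and symbols the culture numbers. Bop1 and the cartilage mean are higher where Scx is higher (r = 0.84 and 0.87), and the limb mean less closely (r = 0.59).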

How the data were processed

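Expression had been measured on 12 Affymetrix arrays, 1 per culture. The deposited values are log2 signals per probe set. Per the submitters' processing notes the authors used GCOS 1.4, Affymetrix Expression Console and PLIER, with no role stated. The sources used here name no genome build. Array quantiles differed by at most 0.08 between arrays, so values were used as deposited. The number of arrays limits the precision. For each probe set 1 estimate of the spread within groups was shared by all 4 groups. A gene thus has the same standard error in both knockout comparisons, also where 1 line varied more. For Thbs4 the SD was 0.007 in mTERT WT and 1.01 in mTR WT cultures. P-values rest on this shared spread between the cultures within groups. Those of the line difference treat all cultures of a line as independent, although wild-type and knockout embryos of a set were littermates.

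Group means of all 12 arrays were fitted with limma 3.58.1 in R 4.3.3 (8 residual and 3.14 prior degrees of freedom), with Benjamini-Hochberg adjustment over all 28853 probe sets and a threshold of 0.05. The mean knockout effect and the line difference do not overlap, as contrasts, with the one that picked Scx. Members and lists were chosen with earlier results of these data known. Of 225 list entries 214 had a probe set with 1 symbol (highest mean if several). Genes named from a list are among the up to 3 with the smallest unadjusted p in a comparison, apart from genes given only for their level or their r with Scx, which were chosen after their values were seen. The genes most (6) and least (3) like Scx followed Pearson's r.

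Same-numbered mTERT cultures deviated together (r = 0.67, 0.73 and 0.79 over 14426 brighter probe sets) and were taken as pairs, from the data. Same-numbered mTR cultures did not (−0.16, 0.29 and −0.38). The standard errors, intervals and p-values of the main fit did not use the pairs. On simulated data with 200 changed probe sets, 97.0% of log2 changes of 1 were recovered in either knockout comparison, and 55.2% (mTERT) and 53.7% (mTR) of changes of 0.5. These rates need not hold for genes that vary much between cultures. On the measured arrays Eln was not called at −1.004 ± 0.48 in the mTR comparison (limma, adjusted p = 0.839). The standard errors of Tnmd, Thbs4 and Fmod there were 0.34, 0.38 and 0.36. Plots used Python 3.11.15 with matplotlib 3.10.9.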

Additional observations from a re-analysis of the deposited data

Results flagged for a closer look

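The knockout effect on Scx had opposite signs in the 2 lines: each mTERT KO culture lay above the mean of mTERT WT and each mTR KO culture below the mean of mTR WT, with a difference between the effects of 1.29 ± 0.30. The culture mTERT KO 1 lay barely above that mean (6.79 against 6.76) and below mTERT WT 1 (a difference of −0.08). The mTERT groups overlapped, and the interval of the mTERT difference ran from −0.12 to 0.81. The difference between the effects was not tested, since the gene was picked on it. Of all probe sets 5.04% met the same description.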

How the results depend on the processing

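In the 488 alternative fits of the 22 tested results of the 6 genes, 0 passed the 5% false discovery rate. The 23 changes of direction concerned small differences. For Tnmd the mean effect was −0.11 with array weights and ran from −0.16 to 0.20 when 1 array was left out, the mTERT difference from −0.19 to 0.48 and the mTR difference from −0.42 to 0.11. Leaving out 1 array also gave −0.22 to 0.044 for Mkx in the mTERT line, −0.013 to 0.37 for Thbs4 there and −0.44 to 0.052 for its mean effect, −0.11 to 0.11 for Fmod in the mTERT line, −0.072 to 0.041 for Kera there and −0.022 to 0.034 for its mean effect, and −0.039 to 0.13 for Bop1 in the mTERT line. The number of probe sets called between the lines was 14 with array weights, 1 with the number within each line as a random replicate block, 23 with the number across both lines as a block, and 0 to 22 when 1 array was left out (22 without mTR WT 2). In the mTERT comparison it was 0 after quantile normalization, with the 6 arrays of the line or with the number within each line as a block, and 0 to 2 when 1 array was left out. It was 0 to 1 for the mean effect and 0 to 3 for the mTR comparison. The mTERT pairs as a block changed no call; with them the mean effect of Scx had an adjusted p of 0.878. Of the 6 genes most like Scx, 3 were also among the 6 closest by Spearman's rho and 1 by deviations from group means. Each member had a single probe set, so no other could be tried. The causes were not tested.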

Other observations

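The mean of the cartilage markers had a higher r with Scx than the mean of the tendon matrix genes had, a pattern picked out after the values of 6 lists had been seen. The mean signal of the 12 markers correlated with Scx at 0.87 over the 12 cultures (Spearman's rho 0.94), at 0.72 without mTR WT 1 and mTR WT 3 (n = 10), and at 0.87 for the deviations from the group means. The r was 0.81 in the mTERT and 0.89 in the mTR line (n = 6 each). Single genes differed: Col2a1, the collagen of cartilage fibrils (r = 0.83 over the 12 cultures), Hapln1, a link protein (0.73), and Acan, the aggrecan gene (0.69), while Col9a1, Col9a2 and Col9a3 had 0.12, 0.02 and 0.15. Hapln1 was above background in 1 of 12 cultures and Acan in 7. Acan ranged from 4.51 to 7.75.

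For Col2a1 the mTR WT cultures had 8.76, 8.18 and 7.62, against 7.25, 7.45 and 7.50 for mTR KO, a difference of −0.79 ± 0.27 without overlap (limma, adjusted p = 0.839). Sox6, a factor of cartilage differentiation, had a line difference of −0.39 ± 0.10 (adjusted p = 0.439). Of the 12 markers 10 had a positive r with Scx, against 53.1% of all probe sets, and the 6 that were above background in every culture had a joint r of 0.73. The other 6, of which Matn1, Matn3 and Cnmd were above background in 0 cultures, had a higher one, 0.84.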
